A study of Mus musculus with 15 samples.

Results

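The replication-dependent histone genes were followed through the loss of OCT4 in mouse ESCs. Members were the genes whose symbol begins with Hist1h to Hist4h and whose reads, summed over the 15 libraries, reached 150, and 63 of the 48709 genes in the count files met this rule. They comprised 6 H1, 18 H2A, 16 H2B, 10 H3 and 13 H4 genes. By symbol, 54 were Hist1 genes on chromosome 13, 5 Hist2 genes on chromosome 3, 3 Hist3 genes on chromosome 11, and 1, *Hist4h4*, lay on chromosome 6. The pseudogene *Hist1h2al* (chr13:51202688-51203065) lay far outside the Hist1 cluster despite its symbol. The member nearest the threshold, *Hist3h2a*, held 348 reads, and the 5 histone genes left out each held 0 reads. The annotation listed 3 members, *Hist1h2aj*, *Hist1h2al* and *Hist3h2bb-ps*, as pseudogenes.

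OCT4 was removed from naive ESCs, kept in N2B27 with PD03, Chiron and LIF, by either of 2 routes. CreER ESCs (Oct4Fl/-, CAG CreER, mixed 129SV C57BL/6 background, with a β-geo null allele) received 500 nM 4OHT, an inducer of CreER that removes the remaining intact copy of the gene, and gave 2 libraries at each of 0, 12, 18, 24 and 36 h. O4AID ESCs (Oct4-/-, TetOFF Oct4, CAG Oct4AID, CAG Tir1, 129SV background, from the ZHBT line) were kept in doxycycline, which shuts off the untagged TetOFF Oct4, and received 500 µM IAA, an auxin that marks the degron-tagged OCT4 for degradation. They gave 1 library at each of 0, 1.5, 6, 10 and 24 h. The 0 h libraries were untreated in both lines. No untreated library stood beside a later time, so the effect of treatment and that of time in culture cannot be told apart, and each line is a single cell line.

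Replication-dependent histone genes supply the histones that package newly copied DNA, so their mRNAs build up in S phase and are degraded when replication stops. Their mRNAs end in a conserved stem-loop, bound by SLBP, in place of a poly(A) tail. NPAT and CASP8AP2 act at the histone locus body where these genes are transcribed. Ribosomal RNA was depleted here and poly(A) RNA was not selected, so mRNAs without a tail were retained. In bulk RNA, fewer cells making a histone mRNA and less of that mRNA per cell cannot be told apart.

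The stem-loop was sought in the GENCODE M21 transcripts of the members as a perfect stem of 6 bases that begins with GG and closes over a loop of 4 bases that begins with TTT. It was found in 39 of 63 members (61.9%), against 79 of 55450 annotated genes (0.142%), a set that contains the members. By type it was present in 4 of 6 H1, 9 of 18 H2A, 8 of 16 H2B, 7 of 10 H3 and 11 of 13 H4 genes. A model can stop before this point, and a member without a match says only that this pattern is not in its listed transcripts. The commonest form occurred 21 times. The 8 sites below come from members described later and are shown because they give the forms of the motif by histone type, with the stem and loop in capitals (GRCm38).
*Hist1h1d* (chr13:23555787-23555802 for the capitals, plus strand): tcaaacGGCTCTTTTCAGAGCCacccac
*Hist1h2bb* (chr13:23747203-23747218 for the capitals, plus strand): cccaaaGGCTCTTTTAAGAGCCacccac
*Hist1h2bk* (chr13:22036300-22036315 for the capitals, plus strand): accaaaGGCTCTTTTAAGAGCCactaaa
*Hist1h3e* (chr13:23561903-23561918 for the capitals, minus strand): caaaacGGCTCTTTTAAGAGCCacctcc
*Hist1h4d* (chr13:23581950-23581965 for the capitals, plus strand): accaaaGGCCCTTTTCAGGGCCactacc
*Hist2h4* (chr3:96262939-96262954 for the capitals, minus strand): cctaacGGCCCTTTTTAGGGCCaaccac
*Hist3h2a* (chr11:58955172-58955187 for the capitals, plus strand): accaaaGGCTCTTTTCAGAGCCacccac
*Hist3h2ba* (chr11:58949349-58949364 for the capitals, plus strand): cccaaaGGCTCTTTTCAGAGCCaccttc
The H1, H2A, H2B and H3 sites shown shared a stem of the same letters and differed only in the last base of the loop. The 2 H4 sites had another stem. In *Hist3h2a* the gene model ran 1643 bases past the stem-loop, and in *Hist4h4* 2445 bases, so reads there also count toward the gene. In the M21 transcripts, models ended within 60 bases of the stem-loop in 18 members and at least 500 bases after it in 10. The models used for counting can be shorter. For *Hist1h1d* an M21 transcript ran 4884 bases past the stem-loop, but the counted model ended at chr13:23555830.

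Members share much of their sequence. Of all 50-base windows in a member's transcripts, a median of 49.7% (range 0% to 97.3%) also occurred in a transcript of another gene, and 31 members shared over 50% of their windows. The median was 67.3% for H2A, 57.2% for H3, 46.9% for H2B, 39.5% for H4 and 1.12% for H1. *Hist1h1a*, *Hist1h1b*, *Hist1h1t* and *Hist2h2be* shared none. The M21 transcripts can be longer than the models used for counting, as in *Hist1h1d*, with 7376 windows and a counted length of 744 bases. The handling of reads that map to several copies was not stated, so the split of reads among copies is uncertain, most of all for H2A. The exons of 20 members also overlapped another listed gene. Every H2A gene had such an overlap on the opposite strand, as in *Hist1h2ak*, with 138 of 393 counted bases. The strand setting of the counting was not stated either, and the part of these overlaps in the H2A levels was not tested.

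Promoters were examined for the octamer, a motif of POU-domain factors such as OCT1 (encoded by *Pou2f1*) and OCT4 that is a known element of H2B promoters. RefSeq promoters of 300 bases were held for 55 of 63 members, 56 windows in all. ATTTGCAT in either orientation occurred in 12 of these windows (21.4%), against 1.74% of 32851 RefSeq promoters. The matches lay in 7 of 16 H2A and 5 of 14 H2B windows, and none was found in the windows of the H1, H3 or H4 genes. They came from 9 genomic sites, since 3 sites fell in the overlapping windows of a divergent H2A and H2B pair. CCAAT on either strand occurred in 47 of 56 windows (83.9%, against 37.4% of all), including all 16 H2A but 3 of 12 H4 windows. TATAAA on either strand occurred in 34 (60.7%, against 13.6%). The 5 promoters below (GRCm38.p6, octamer in capitals) were chosen among the octamer-bearing windows, for members described later. They include *Hist1h2bb*, *Hist1h2bg* and *Hist1h2bk*, which had the lowest O4AID ratios at 24 h on the scale used below. The others are *Hist1h2aa*, which fell at 36 h in CreER and was higher at 24 h in O4AID, and *Hist3h2a*, which rose in CreER.
*Hist1h2bb* (chr13:23746484-23746783, plus strand): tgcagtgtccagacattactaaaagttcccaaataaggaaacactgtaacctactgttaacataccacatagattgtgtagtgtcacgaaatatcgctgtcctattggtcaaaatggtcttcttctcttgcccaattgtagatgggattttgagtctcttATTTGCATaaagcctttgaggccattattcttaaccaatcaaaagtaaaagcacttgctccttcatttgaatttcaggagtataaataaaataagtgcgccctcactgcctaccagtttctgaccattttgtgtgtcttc
*Hist1h2bg* (chr13:23571150-23571449, plus strand): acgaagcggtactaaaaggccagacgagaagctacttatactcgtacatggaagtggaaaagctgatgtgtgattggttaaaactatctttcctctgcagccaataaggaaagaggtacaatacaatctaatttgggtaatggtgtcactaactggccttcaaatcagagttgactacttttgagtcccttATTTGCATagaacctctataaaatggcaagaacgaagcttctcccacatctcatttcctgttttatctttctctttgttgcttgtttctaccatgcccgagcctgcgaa
*Hist1h2bk* (chr13:22035571-22035870, plus strand): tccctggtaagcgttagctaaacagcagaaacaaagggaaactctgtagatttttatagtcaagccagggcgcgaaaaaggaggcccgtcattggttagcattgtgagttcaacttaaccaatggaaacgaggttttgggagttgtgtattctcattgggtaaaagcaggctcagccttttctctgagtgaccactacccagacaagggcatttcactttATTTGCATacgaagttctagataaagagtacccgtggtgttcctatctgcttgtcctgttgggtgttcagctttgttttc
*Hist1h2aa* (chr13:23934187-23934486, plus strand): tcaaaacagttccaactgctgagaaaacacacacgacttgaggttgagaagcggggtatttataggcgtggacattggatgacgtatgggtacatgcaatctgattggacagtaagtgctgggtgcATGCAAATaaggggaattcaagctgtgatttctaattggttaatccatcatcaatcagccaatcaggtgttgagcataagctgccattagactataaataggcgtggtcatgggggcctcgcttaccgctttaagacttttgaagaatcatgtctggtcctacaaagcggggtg
*Hist3h2a* (chr11:58954435-58954734, plus strand): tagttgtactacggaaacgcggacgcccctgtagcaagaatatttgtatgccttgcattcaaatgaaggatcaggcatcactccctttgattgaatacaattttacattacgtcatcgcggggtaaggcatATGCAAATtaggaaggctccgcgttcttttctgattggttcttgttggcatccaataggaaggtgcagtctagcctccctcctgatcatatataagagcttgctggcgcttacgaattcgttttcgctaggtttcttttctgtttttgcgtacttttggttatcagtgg
In the first 3 the octamer reads ATTTGCAT toward the start site, and in the other 2 it reads ATGCAAAT, the same motif on the other strand. The windows of *Hist3h2ba*, with the highest O4AID ratio at 24 h, and of *Hist1h3d*, with the largest called fall in CreER at 36 h, held no octamer.

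**Figure D1:**
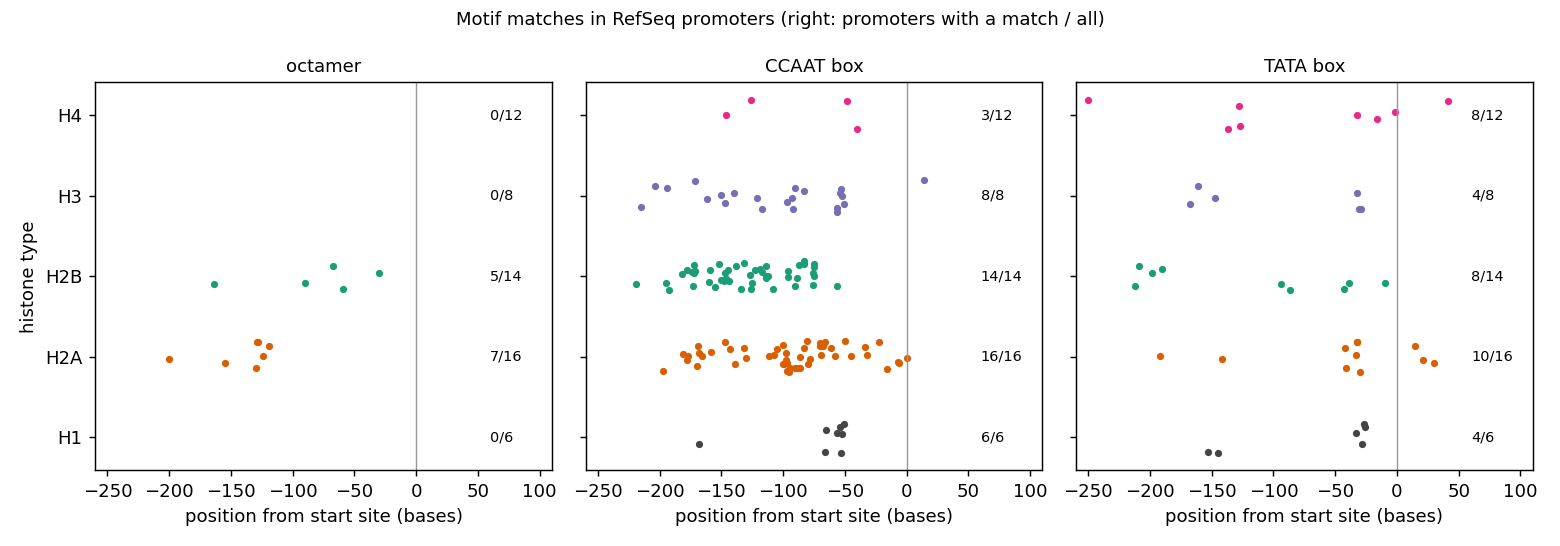
Positions of octamer, CCAAT and TATAAA matches (leftmost base, in bases from the start site at 0) in the 300-base RefSeq promoters of members, 1 row per histone type with points spread vertically for visibility; the numbers at the right give promoters with a match over all promoters of that type. Octamer matches lie in 7 of 16 H2A and 5 of 14 H2B promoters and in none of the others.

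Counted reads per library, in mega (M), ranged from 21.7 to 30.8 M for CreER cells and from 40.5 to 48.7 M for O4AID cells. *Pou5f1*, the gene targeted in CreER, stood at 321 and 317 CPM (counts per M with TMM scaling, the unit of every level given as CPM) at 0 h, 132 and 134 CPM at 24 h and 112 and 123 CPM at 36 h. In O4AID the protein is the target, and the 633 to 866 CPM of *Pou5f1* there checks nothing. All 9 ESC markers were found above 1 CPM in at least 1 library. Their sum went from 3144 and 3251 CPM at 0 h to 2643 and 2603 at 24 h and 2546 and 2445 CPM at 36 h in CreER. In O4AID it stood at 7153, 6590, 4268, 3746 and 2258 CPM at 0, 1.5, 6, 10 and 24 h. Of these 9 markers, 8 were 1.5-fold lower at 10 h in O4AID, against 3.72% of all genes. Single ESC markers went both ways in CreER (edgeR, adjusted p under 0.05). At 24 h, 2 of 9 rose and 4 fell, against 11.0% and 10.6% of all genes. At 36 h, 2 rose and 6 fell, against 19.4% and 17.2%. The 8 fibroblast (feeder) markers summed to 8.32 to 10.2 CPM in CreER and 2.71 to 5.08 CPM in O4AID. Summed over 9 genes, trophectoderm markers went from 328 and 341 CPM at 0 h to 665 and 695 CPM at 36 h in CreER and from 119 to 179 CPM at 24 h in O4AID. Over 7 genes, primitive endoderm markers went from 14.5 and 16.6 to 36.0 and 37.0 CPM in CreER and from 10.8 to 45.7 CPM in O4AID. The part of these markers in the histone results was not tested.

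Histone mRNAs took a smaller share of reads in the CreER libraries than in the O4AID libraries. In CreER the members took 0.432% and 0.449% of all counted reads at 0 h, 0.426% and 0.439% at 12 h and 0.422% and 0.391% at 18 h. They took 0.395% and 0.412% at 24 h and 0.402% and 0.402% at 36 h, and both libraries at 24 h and at 36 h lay below both at 0 h. In O4AID the share was 0.731% at 0 h, 0.765% at 1.5 h and 0.788% at 6 h, then 0.549% at 10 h and 0.604% at 24 h. The 95% Wilson intervals, which cover counting error only, ran from 0.785% to 0.791% at 6 h and from 0.547% to 0.552% at 10 h. By type at 6 and 10 h, H1 took 0.188% and 0.123%, H2A 0.0613% and 0.0419%, H2B 0.142% and 0.0996%, H3 0.205% and 0.145%, and H4 0.192% and 0.140%. Each of the 5 types was thus lower at 10 h. Mitochondrial *mt-Rnr2* alone took 6.92% and 7.68% of CreER reads at 0 h and 12.1% and 14.7% at 36 h, which lowers every other share there. With small RNA, rRNA and mitochondrial genes left out of the total, the share of members in CreER at 36 h changed by -1.51% of its 0 h value in place of -8.81%.

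**Figure D2:**
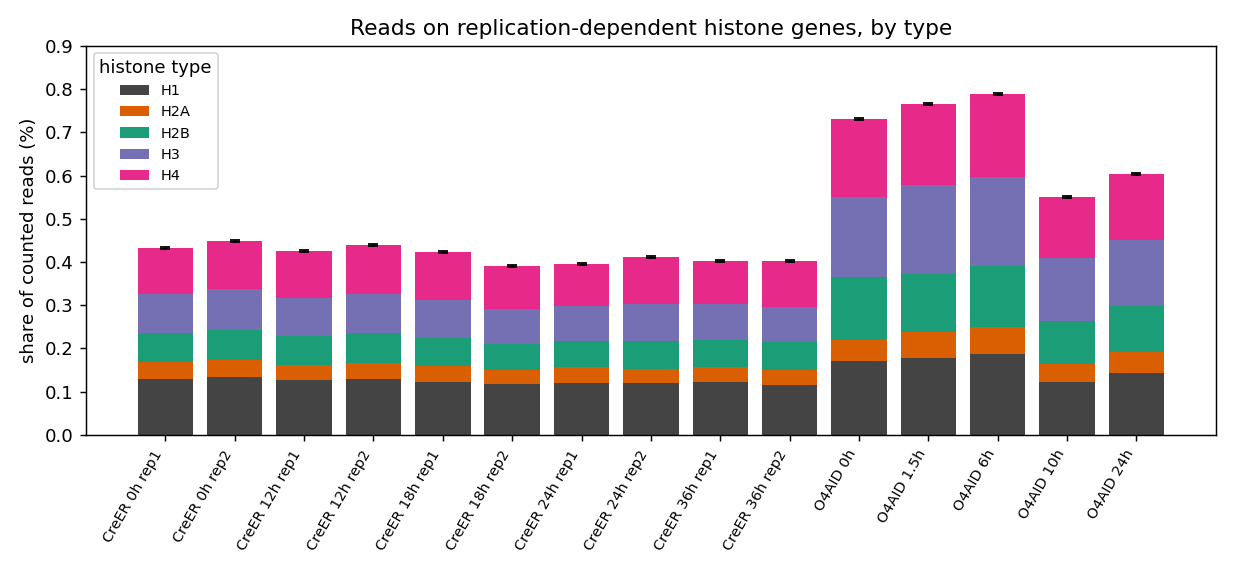
Share of all counted reads (%, y axis) on the 63 histone genes in each library, stacked by histone type; error bars are 95% Wilson intervals of the total. The 10 CreER libraries sit between 0.391% and 0.449%, and the O4AID libraries between 0.549% and 0.788%, with the lowest at 10 h.

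Within each type, a few genes held the highest levels. Levels between genes were compared per length, as RPKM (CPM divided by gene length in kilobases), as the mean over 15 libraries. *Hist1h4d* was highest at 1140 RPKM, followed by the linker histone gene *Hist1h1a* at 791 RPKM. The next H1 genes were *Hist1h1d* at 360 and *Hist1h1b* at 264 RPKM. For H4, *Hist1h4k* stood at 386 and *Hist1h4f* at 257 RPKM. The highest H3 genes were *Hist1h3g*, *Hist1h3e* and *Hist1h3h* at 367, 297 and 291 RPKM. The highest H2B genes were *Hist1h2bb*, *Hist1h2bl* and *Hist1h2bg* at 242, 220 and 196 RPKM, and the highest H2A genes were *Hist1h2ak*, *Hist1h2al* and *Hist1h2ai* at 199, 182 and 135 RPKM. *Hist1h1a* ranged from 699 to 829 RPKM in CreER and from 565 to 1010 RPKM in O4AID. *Hist1h4d* ranged from 874 to 1030 RPKM in CreER and from 1260 to 1720 RPKM in O4AID, so it lay above *Hist1h1a* in all libraries. The lowest member was *Hist3h2a* at 0.372 RPKM. Gene models that end at the stop codon or run past the stem-loop change the length used here.

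The 2 lines differed widely in single histone genes before treatment. Relative to the 2 CreER 0 h libraries, the O4AID 0 h library had a median log2 ratio (of CPM + 1) of 0.75 over members, with 0.79 against replicate 1 and 0.67 against replicate 2, whereas the median of all 18607 genes with at least 150 reads was 0.04. At least 1.5-fold in the same direction against both replicates, 35 of 63 members (55.6%) were higher, against 26.5% of all genes, and 9 (14.3%) were lower, against 22.9%. These are values of 1 library against 2 from lines that differ in strain and in the *Pou5f1* locus, so no test was made. H3 genes were higher most uniformly, with a median of 1.11 and 9 of 10 past 1.5-fold. The median was 0.81 for H2B and for H4, 0.70 for H1 and -0.16 for H2A. *Hist1h2bp* showed the highest ratio, with 8.24 and 9.44 CPM in CreER and 122.5 CPM in O4AID. *Hist1h2ab* showed the lowest, with 25.8 and 30.2 CPM in CreER and 0.683 CPM in O4AID, which rests on 30 O4AID reads. Both were named after their values were seen. *Hist1h2ai* stood at 20.9 and 24.6 against 119 CPM and *Hist1h3h* at 47.3 and 54.6 against 290 CPM. In *Hist1h2ai*, 90.1% of 50-base windows recur in another gene, in *Hist1h3h* 93.9%, in *Hist1h2ab* 58.0% and in *Hist1h2bp* 44.1%. Other RNAs without a poly(A) tail (15 listed) also differed between the lines, with sums of 3354 and 3553 CPM in untreated CreER and 447 CPM in untreated O4AID, and *Rpph1* alone stood at 1930 and 1681 against 185 CPM. The part of this difference, of read assignment among copies and of sequence differences between strains was not tested.

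**Figure D3:**
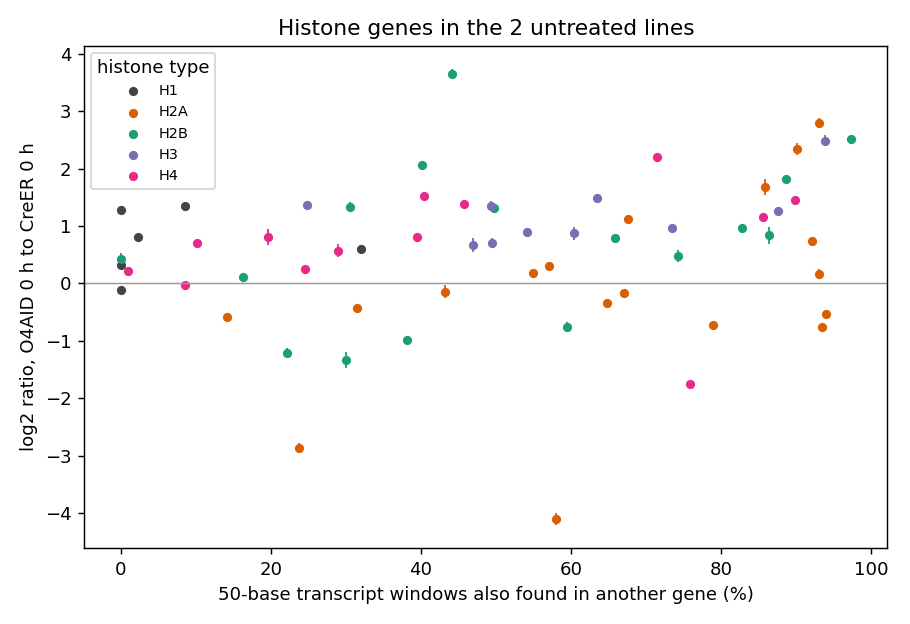
Log2 ratio of CPM + 1 between the untreated O4AID library and the untreated CreER libraries (y axis; points are means over 2 replicates, bars span the 2 values) against the percent of 50-base transcript windows also found in another gene (x axis), 1 point per member. Ratios run from -4.10 (*Hist1h2ab*) to 3.65 (*Hist1h2bp*), and both signs occur among genes with few and with many shared windows.

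In CreER, deletion of *Pou5f1* was followed by slightly lower median levels of histone mRNAs at 18 and 24 h. Called decreases were few at 18 h. Changes were fitted with edgeR's quasi-likelihood test over all 10 libraries, and a gene was called at a Benjamini-Hochberg adjusted p under 0.05 over 18969 genes, which included all 63 members. At 12 h none of the members was called, against 0.258% of all genes called higher and 0.137% called lower. At an unadjusted p under 0.05 there were 5 members at this time, and no member was called by DESeq2. At 18 h, 1 member rose (1.59%) and 4 fell (6.35%), against 4.73% and 3.79% of all genes. At 24 h, 1 rose and 18 fell (28.6%), against 11.0% and 10.6% of all genes. At 36 h, 1 rose and 6 fell (9.52%), against 19.4% and 17.2%. The share of members that fell thus stood above the background at 24 h and below it at 36 h, and at 18 h it rested on 4 genes. The median log2 fold change of members was 0.02, -0.12, -0.17 and -0.03 at 12, 18, 24 and 36 h, beside medians of all genes within 0.02 of 0. Fitted values were below 0 for 58 of 63 members at 18 h, for 58 at 24 h and for 38 at 36 h. Of all 18969 genes, 9129, 9075 and 9309 were below 0 at these times. Members share sequence, so their values are not independent.

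These counts rested on few libraries. At 24 h, 18 members fell with all libraries, 4 if replicate 2 of 0 h was left out, and 9 if replicate 1 of 24 h was. At 18 h the count of 4 became 1 without replicate 2 of 0 h or of 18 h, 9 once replicate 1 of 0 h was dropped and 7 when either 36 h library was. At 36 h the count of 6 became 1 when replicate 2 of 0 h was removed and 12 when replicate 1 of that time was. With total-count scaling, 16 members fell at 36 h with a median of -0.12. The median at 18 h was -0.04 when replicate 2 of 18 h was left out and -0.07 when replicate 2 of 0 h was. The median at 36 h was 0.003 when replicate 2 of 0 h was left out and -0.07 when replicate 1 of 0 h was. At 36 h it was -0.06 when replicate 2 of that time was left out. The median at 24 h stayed negative in every such fit, from -0.20 to -0.10.

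Among types, the decrease at 24 h was called for 4 of 6 H1, 5 of 18 H2A, 2 of 16 H2B, 5 of 10 H3 and 2 of 13 H4 genes. The H1 genes encode linker histones, which bind DNA between nucleosomes. *Hist1h1a* (ENSMUSG00000049539, chr13:23763717-23764358, plus strand) stood at 497 and 532 CPM at 0 h, 510 and 532 at 12 h, 463 and 468 at 18 h, 449 and 473 at 24 h and 461 and 478 at 36 h. From 18 h on, all its libraries lay below those of 0 h. At 24 h it fell by 0.15 on the log2 scale (SE 0.042, adjusted p = 0.00946). By 36 h its log2 fold change was -0.12, with an adjusted p of 0.0242. Without replicate 2 of 0 h both calls were lost, with adjusted p of 0.122 and 0.248. Leaving out the first replicate of the later time also lost the call, at 24 h (0.141) as well as at 36 h (0.17).

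*Hist1h1b* went from 204 and 215 CPM at 0 h to 183 and 187 at 24 h and 195 and 189 at 36 h, without overlap. The log2 fold change was -0.17 for 24 h (SE 0.040, adjusted p = 0.00242) and -0.11 for 36 h (adjusted p = 0.027). The 36 h call was lost without replicate 2 of 0 h (0.196) or of 36 h (0.0952). With only the 4 libraries compared in the fit, the 36 h calls of *Hist1h1a* (0.0981) and *Hist1h1b* (0.107) were lost as well. *Hist1h1d* went from 235 and 236 to 213 and 203 CPM at 24 h (log2 fold change -0.17, SE 0.050, adjusted p = 0.0145), and at 36 h its libraries, 242 and 213 CPM, overlapped those of 0 h. That 24 h call was lost without either 0 h replicate (0.0525 and 0.0654) or without replicate 2 of 24 h (0.172). *Hist1h1b*, unlike many members, shares no 50-base window with another gene.

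H3 genes, which encode a core histone, had the largest share of called decreases at 24 h among the core types. By median log2 fold change at 24 h H2A was lowest, at -0.25. The medians were -0.18 for H3, -0.17 for H1, -0.12 for H4 and -0.11 for H2B. *Hist1h3g* (chr13:23535434-23535860, plus strand) held 145 and 130 CPM at 0 h, 117 and 124 at 24 h and 119 and 113 at 36 h, with these values below both of 0 h, whereas at 12 h, at 127 and 137 CPM, the groups overlapped. With an SE of 0.053 at each time, the log2 fold change was -0.19 at 24 h (adjusted p = 0.0126) and -0.24 by 36 h (adjusted p = 0.000957). The 24 h call was lost without replicate 1 of 0 h (0.185) or of 24 h (0.158), and the 36 h call was kept in each fit that left out 1 library. *Hist1h3d* went from 74.0 and 78.2 to 63.9 and 49.9 CPM at 36 h, a fall of 0.40 (SE 0.090, adjusted p = 0.00385), with an adjusted p of 0.0566 without replicate 2 of 0 h. *Hist1h3e* went from 193 and 202 to 174 and 181 CPM at 24 h (log2 fold change -0.15, adjusted p = 0.0236) and stood at 197 and 199 CPM at 36 h, inside the range of 0 h. The 24 h call of *Hist1h3e* was lost without replicate 2 of 0 h (0.156) or either replicate of 24 h (0.177 and 0.0688), and also with total-count scaling (0.0721). *Hist1h3h*, at 47.3 and 54.6 CPM at 0 h and 40.8 and 49.99 CPM at 24 h, overlapped between groups.

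Members of the nucleosomal dimer H2A and H2B moved less evenly. *Hist1h2ab*, chosen here after its values were seen, had 25.8 and 30.2 CPM at 0 h, 21.8 and 21.1 at 18 h, 22.3 and 21.8 at 24 h and 26.1 and 24.5 at 36 h. It fell by 0.39 at 18 h (SE 0.076, adjusted p = 0.0014) and by 0.34 at 24 h (adjusted p = 0.00141), whereas at 36 h its libraries overlapped those of 0 h. Without replicate 2 of 0 h the adjusted p were 0.0775 and 0.0714. *Hist1h2aa*, which encodes the testis histone TH2A, went from 11.6 and 12.9 CPM to 9.11 and 10.1 CPM at 36 h and fell by 0.34 (SE 0.107, adjusted p = 0.0127). That call was lost without replicate 2 of 0 h (0.134) or replicate 1 of 36 h (0.153). *Hist1h2al* fell by 0.19 at 24 h (adjusted p = 0.0198), from 52.7 and 54.7 to 44.5 and 49.7 CPM, and was not called without replicate 2 of 0 h (0.11) or replicate 1 of 24 h (0.314), or with DESeq2 (0.0512). For *Hist1h2ak* and *Hist1h2ai* the log2 fold changes at 24 h were -0.26 (SE 0.119) and -0.21 (SE 0.109), with adjusted p of 0.177 and 0.189.

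Of the H2B genes, *Hist1h2bk* went from 48.1 and 55.6 to 39.1 and 46.4 CPM at 24 h (log2 fold change -0.28, SE 0.081, adjusted p = 0.0218), lost without replicate 2 of 0 h (0.191) or replicate 1 of 24 h (0.23). *Hist1h2bb* held 62.5 and 63.0 CPM at 0 h, 57.2 and 59.2 at 24 h and 63.8 and 64.6 at 36 h, with adjusted p of 0.144 and 0.536. For *Hist1h2bl* and *Hist1h2bg* the adjusted p at 24 h were 0.104 and 0.334. The highest H4 genes were not called at any time, as *Hist1h4d* held 373 and 397 CPM at 0 h and 343 and 375 at 24 h, and *Hist1h4k* and *Hist1h4f* had adjusted p of 0.188 and 0.691 at 24 h. *Hist2h4* was the H4 gene called at 36 h. It went from 42.6 and 45.4 to 34.2 and 37.0 CPM and fell by 0.30 (SE 0.079, adjusted p = 0.00496), and the call was lost without replicate 2 of 0 h (0.0621) or replicate 1 of 36 h (0.0911).

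*Hist3h2a* was the one member that rose in CreER. This H2A gene of the Hist3 cluster (chr11:58954685-58956830, plus strand) had 0.508 and 0.594 CPM at 0 h, 0.889 and 0.684 at 12 h, 1.02 and 1.43 at 18 h, 1.10 and 1.09 at 24 h and 1.80 and 1.36 at 36 h. All later libraries lay above those of 0 h, yet these levels correspond to 13 and 18 reads at 0 h and 46 and 29 at 36 h. Relative to 0 h it rose on the log2 scale by 1.15 ± 0.306 (SE) by 18 h, with an adjusted p of 0.0169. By 24 h the rise was 0.98 ± 0.311 (adjusted p = 0.0241), and by 36 h it was 1.53 ± 0.300 (adjusted p = 0.000186). At 36 h the call held in each fit without 1 library, with log2 fold changes of 1.30 to 1.69. At 18 h it was lost without either 0 h replicate (0.0696 and 0.0776) or replicate 2 of 18 h (0.233), and at 24 h without either replicate of 0 h (0.106 and 0.0722) or of 24 h (0.113 and 0.0845). The gene model shares 708 bases on the same strand with *Trim17*, which stood at 0.391 and 1.39 CPM at 0 h and 0.860 and 0.796 CPM at 36 h. The part of reads from *Trim17* in *Hist3h2a* was not tested.

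**Figure D4:**
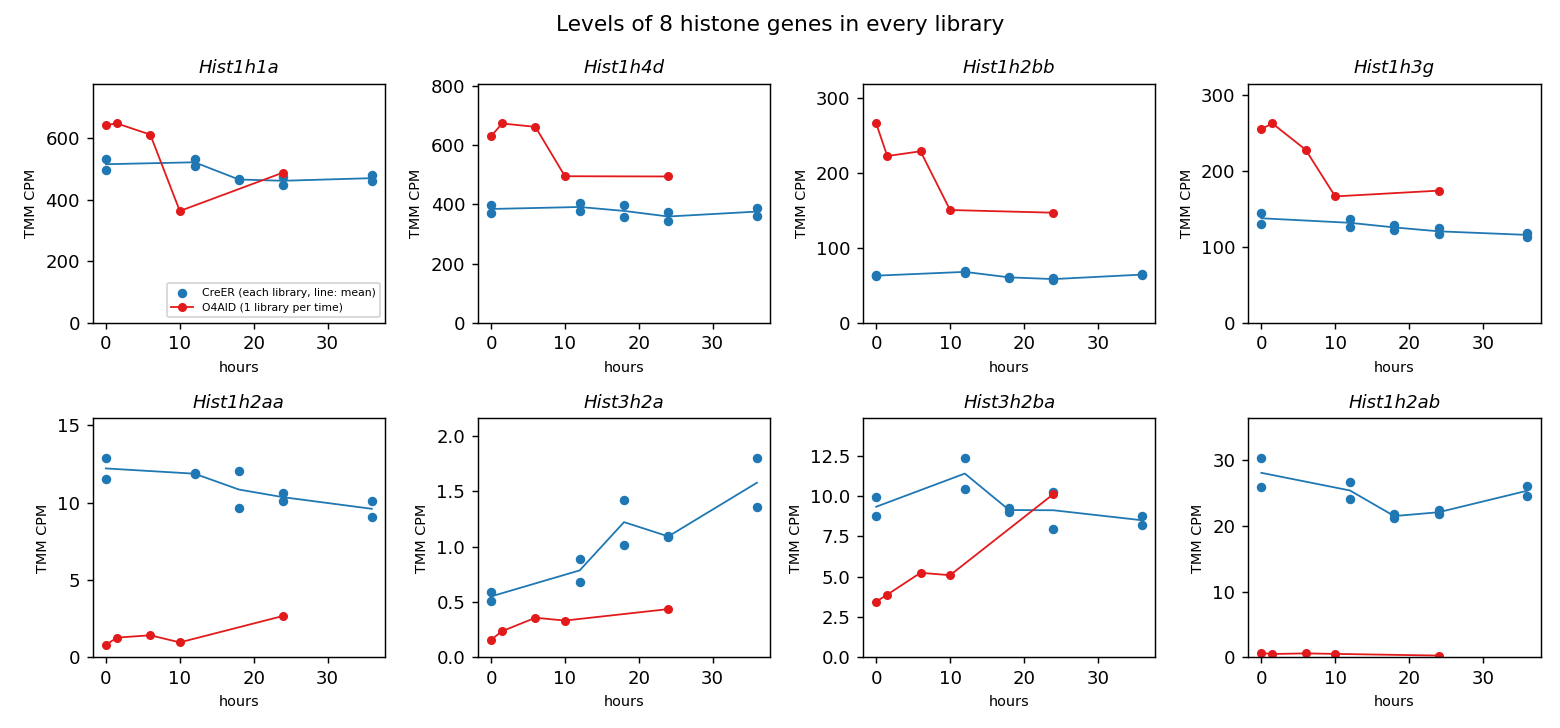
TMM-scaled CPM (y axis, from 0, own scale per panel) against hours after treatment for 8 histone genes, with each CreER library as a blue point (line: mean of 2) and each O4AID library as a red point. *Hist1h1a* in O4AID drops from 611 CPM at 6 h to 363 CPM at 10 h, while *Hist3h2ba* goes up from 5.10 CPM at 10 h to 10.1 CPM at 24 h.

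In O4AID, the median of histone mRNA levels stayed near that of 0 h through 6 h of IAA and was lower in the 10 h and 24 h libraries. With 1 library per time there is no test, and a ratio was called past 1.5-fold on the log2(CPM + 1) scale among 18607 genes, so values describe these libraries and the intervals cover counting error only. At 1.5 h no member was 1.5-fold higher or lower, against 0.215% and 0.441% of all genes. At 6 h none was called either, against 2.02% and 2.26%. At 10 h none was 1.5-fold higher and 16 (25.4%) were lower, against 3.96% and 3.72% of all genes. At 24 h, 2 were higher and 7 (11.1%) lower, against 9.58% and 9.14%. The median log2 ratio of members was 0.03, 0.06, -0.43 and -0.39 at 1.5, 6, 10 and 24 h, beside -0.01, -0.01, -0.02 and -0.02 over all genes. Types differed early, with medians at 1.5 and 6 h of 0.14 and 0.22 for H2A and 0.12 and 0.07 for H3. The same medians were -0.001 and 0.10 for H1, -0.11 and -0.02 for H2B, and -0.05 and -0.07 for H4. At 10 h, 58 of 63 ratios were below 0, beside 9882 of 18607 genes. By type, 1.5-fold decreases were counted in 6 of 16 H2B, 5 of 13 H4, 3 of 10 H3, 2 of 6 H1 and none of 18 H2A genes. The absence of H2A genes depends on the added 1 CPM, which pulls ratios of low genes toward 0. The H2A gene *Hist1h2ad*, named here for that limit, had 7.65 CPM at 0 h and 5.00 CPM at 10 h (ratio -0.53). Scaled by total counts in place of TMM, 6 members were 1.5-fold lower at 10 h and 2 at 24 h, with medians of -0.34 and -0.26.

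The step lay between 6 and 10 h. Taken directly, a comparison added after the values were seen, the 10 h library had a median log2 ratio of -0.50 to the 6 h library over members. In it, 62 of 63 members were lower, beside 9437 of 18607 genes. Of the members, 13 (20.6%) were 1.5-fold lower and none 1.5-fold higher, against 0.451% and 0.548% of all genes. The lower and upper quartiles of members were -0.56 and -0.42, so the shift was shared across genes. It was shared across types as well, with medians of -0.67 for H1, -0.54 for H2A, -0.51 for H3, -0.48 for H2B and -0.45 for H4. In the Hist1, Hist2 and Hist3 clusters the medians were -0.52, -0.40 and -0.04, the last over 3 genes. Members with under 25% of their windows shared with other genes (16) had a median of -0.47, and the remaining 47 had -0.52. These percents cover whole M21 transcripts, and *Hist1h2ac*, at 14.1%, had 2433 windows against a counted model of 476 bases. The split thus does not sort members by sharing where reads were counted, and the part of read assignment in the step was not tested. Since 1 library carries 10 h, its own preparation and the time of IAA cannot be told apart. The separate 24 h library was also below 0 h for 53 of 63 members, beside 9811 of 18607 genes.

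**Figure D5:**
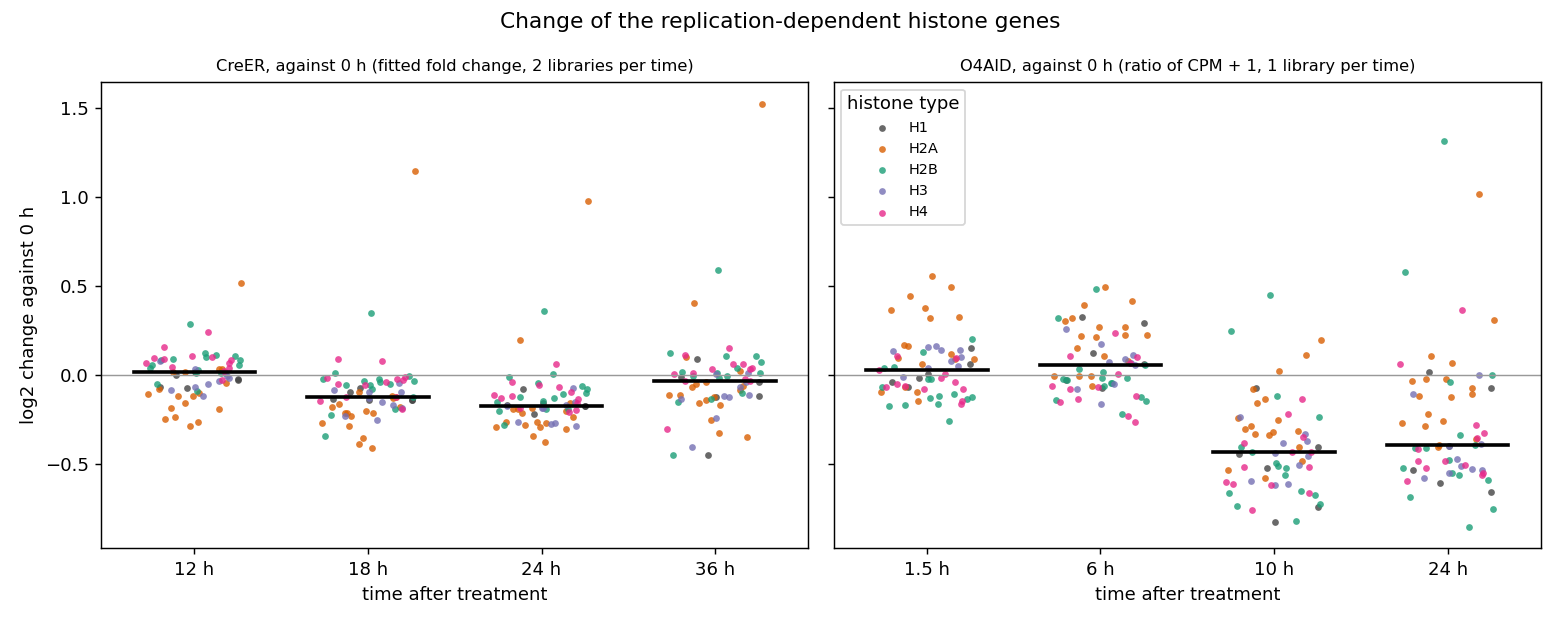
Log2 change against 0 h (y axis) of each of the 63 histone genes at each time, coloured by histone type, with black bars for medians; left, CreER fitted fold changes (2 libraries per time), right, O4AID ratios of CPM + 1 (1 library per time). CreER medians are 0.02, -0.12, -0.17 and -0.03, and O4AID medians 0.03, 0.06, -0.43 and -0.39.

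Among linker histones in O4AID, *Hist1h1a* stood at 643, 647, 611, 363 and 488 CPM at 0, 1.5, 6, 10 and 24 h. Its log2 ratio to 0 h was -0.82 at 10 h (95% interval -0.85 to -0.79) and -0.40 at 24 h (-0.42 to -0.37), so it was nearer its starting level at 24 h. *Hist1h1d* stood at 414, 433, 432, 248 and 262 CPM, with -0.74 at 10 h and -0.66 at 24 h (-0.69 to -0.62). *Hist1h1b* went from 193 CPM at 0 h up to 237 CPM at 6 h, to 146 CPM at 10 h and back to 184 CPM at 24 h. Its ratio was 0.30 at 6 h (0.25 to 0.34) and -0.40 at 10 h (-0.45 to -0.36).

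The H2B genes held the 3 lowest ratios of CPM + 1 at 24 h. Adding 1 CPM also understates falls of genes with few reads, and 2 are named here for that limit. From 0 to 24 h *Hist1h2ab* went from 0.683 to 0.284 CPM, on 30 and 13 reads. *Hist1h4b* went from 0.319 to 0.087 CPM, on 14 and 4 reads. *Hist1h2bb* (chr13:23746790-23747241, plus strand) stood at 266, 222, 229, 150 and 147 CPM, a ratio of -0.85 at 24 h (-0.90 to -0.81). *Hist1h2bg* stood at 175, 161, 158, 105 and 104 CPM, a ratio of -0.75 (-0.80 to -0.70). *Hist1h2bk* stood at 72.1, 64.0, 71.0, 43.1 and 44.5 CPM, a ratio of -0.68 (-0.76 to -0.61). All 3 had dropped by 10 h and changed little from 10 to 24 h, and they carry the octamer printed above. Over the 12 H2A and H2B genes with an octamer the median ratio at 24 h was -0.23, and over the 17 without one it was -0.27. At 10 h against 6 h the same medians were -0.52 and -0.52, and in CreER at 24 h -0.18 and -0.19. Calls in either direction numbered 5 of 12 with the octamer and 1 of 17 without in CreER at 24 h, and 4 of 12 and 2 of 17 in O4AID at 24 h, and neither difference was tested. They include the rises of *Hist3h2a* in CreER and of *Hist1h2aa* (with) and *Hist3h2ba* (without) in O4AID. Of all genes, 11.0% rose and 10.6% fell in CreER at 24 h. In O4AID at 24 h, 9.58% were 1.5-fold higher and 9.14% lower. Divergent pairs share an octamer, so the genes with an octamer are not independent.

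The highest H3 and H4 genes followed the same course. *Hist1h3g* stood at 255, 263, 228, 166 and 174 CPM, *Hist1h3e* at 385, 426, 417, 299 and 295 CPM, and *Hist1h3h* at 290, 306, 309, 205 and 201 CPM. *Hist1h4d* stood at 631, 674, 663, 496 and 495 CPM, a ratio of -0.35 at both 10 h and 24 h. *Hist1h4k* stood at 269, 255, 289, 199 and 215 CPM and *Hist1h4f* at 151, 146, 143, 106 and 108 CPM. *Hist1h3d* had a ratio of -0.59 at 10 h and -0.58 at 24 h. *Hist2h4* differed from these, at 51.3, 52.4, 49.1, 33.5 and 53.6 CPM, and its ratio went from -0.60 at 10 h to 0.07 at 24 h (-0.02 to 0.15). H2A genes were nearest to 0 h at 24 h, with a median of -0.11 for the type. *Hist1h2ak* stood at 92.0, 119, 114, 77.8 and 89.9 CPM, *Hist1h2al* at 119, 111, 118, 79.3 and 89.5 CPM, and *Hist1h2ai* at 119, 134, 139, 94.5 and 102 CPM.

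A few members were higher at 24 h in O4AID. *Hist3h2ba* (chr11:58948920-58949533, plus strand) stood at 3.46, 3.89, 5.25, 5.10 and 10.1 CPM, a ratio of 1.32 at 24 h (1.10 to 1.53), on 152 reads at 0 h and 464 at 24 h. *Hist1h2aa* stood at 0.820, 1.28, 1.43, 0.974 and 2.69 CPM, a ratio of 1.02 (0.73 to 1.29) on 36 and 123 reads. *Hist3h2bb-ps* stood at 0.615, 0.665, 1.02, 0.922 and 1.42 CPM, a ratio of 0.58 (0.28 to 0.87). These genes were low in O4AID, and adding 1 CPM understates their ratios. In CreER *Hist3h2ba* held 8.75 and 9.94 CPM at 0 h and 8.21 and 8.80 CPM at 36 h (adjusted p = 0.427), and *Hist3h2bb-ps* held 2.69 and 3.47 and then 2.27 and 2.25 CPM (adjusted p = 0.084). *Hist3h2a* stood at 0.159 CPM at 0 h and 0.437 CPM at 24 h in O4AID, on 7 and 20 reads (ratio 0.31, 0.05 to 0.55).

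Lower members of the 2 lines were compared by count. Of the 18 members that fell at 24 h in CreER, 7 were 1.5-fold lower in O4AID at 10 h, which is 38.9% of the CreER genes and 43.8% of the 16 O4AID genes, where 25.4% of all members were lower at that time. At 24 h in O4AID the shared number was 2, 11.1% of the CreER genes and 28.6% of the 7 O4AID genes, and 11.1% of all members were lower, so the share equalled that of all members. The shares of the O4AID genes, 43.8% and 28.6%, stand beside 28.6% of all members that fell in CreER at 24 h. Of all genes, 10.6% fell in CreER at 24 h, and 3.72% and 9.14% were lower in O4AID at 10 and 24 h. The 2 lines differ in strain, depletion route and timing, and their difference was not tested.

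The machinery of histone mRNA was itself changed modestly in CreER. *Slbp* went from 100 and 108 CPM at 0 h to 92.5 and 90.2 CPM at 24 h and fell by 0.19 (adjusted p = 0.00558), and at 36 h it stood at 96.5 and 96.0 CPM (adjusted p = 0.09). *Npat* held 119 and 112 CPM at 0 h and 126 and 122 CPM at 36 h (adjusted p = 0.0529), and *Casp8ap2* held 152 and 155 and then 166 and 153 CPM (adjusted p = 0.238). Of 24 tested genes of histone mRNA processing and transcription, none rose and 8 fell at 24 h and 2 rose and 9 fell at 36 h, against 11.0% and 10.6% of all genes at 24 h and 19.4% and 17.2% at 36 h, the background of the next lists too. In O4AID none of the 24 was past 1.5-fold at any time. *Srrt*, a cap-binding partner, fell by 0.44 at 36 h (adjusted p = 4.64e-10), from 281 and 274 to 204 and 200 CPM. *Pou2f1*, which encodes OCT1, fell by 0.41 (adjusted p = 1.37e-07), from 108 and 103 to 78.9 and 78.8 CPM, and in O4AID it stood at 160 CPM at 0 h, 108 CPM at 6 h and 124 CPM at 24 h. In O4AID *Slbp* stood at 83.0, 77.3, 72.4 and 79.4 CPM at 0, 6, 10 and 24 h.

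Of 18 tested histone chaperone and acetylation genes, 1 rose and 7 fell at 24 h and 3 rose and 9 fell at 36 h, with a median of -0.17 at 36 h. *Hat1*, which acetylates new H4, rose by 0.47 at 36 h (adjusted p = 2.03e-10), from 386 and 413 to 554 and 542 CPM, while *Hirip3* fell by 0.61 (adjusted p = 5e-09). Of 12 tested replication-independent histone variants, 2 rose and 3 fell (25%) at 24 h and 4 rose (33.3%) and 3 fell (25%) at 36 h. The macroH2A genes *H2afy2* and *H2afy* rose by 1.00 and 0.36 (adjusted p = 1.93e-11 and 5.71e-07). In O4AID the median of the variants at 10 h against 6 h was -0.14, with none of the 12 past 1.5-fold.

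Genes of G1/S and DNA replication had negative medians beside those of the histone genes in both lines. Of 32 tested in CreER, 1 rose and 13 fell at 24 h (median -0.10) and 2 rose and 10 fell at 36 h, among them *Rpa2*, a single-stranded DNA-binding subunit, which fell by 0.38 (adjusted p = 1.59e-06), while the licensing factor gene *Cdc6* rose by 0.33 (adjusted p = 7.84e-07). In O4AID their median ratio was -0.17, -0.31 and -0.40 at 6, 10 and 24 h, and -0.14 at 10 h against 6 h. None was past 1.5-fold in that step, whereas 11 of 32 (34.4%) were 1.5-fold lower at 24 h, against 9.14% of all genes. Of 25 G2 and mitosis genes, 4 fell at 24 h in CreER, and 4 rose (16%) and 5 fell (20%) at 36 h, shares near those of all genes, 19.4% and 17.2%. Of these, *Cdc25c* and *Anln* rose by 0.41 and 0.19 at 36 h (adjusted p = 5.49e-05 and 0.000375). The median of the O4AID mitosis genes was -0.18 at 10 h and -0.56 at 24 h, when 9 of 25 (36.0%) were 1.5-fold lower. Among 12 tested other RNAs without a poly(A) tail, 1, *Scarna6*, rose at 36 h in CreER (log2 fold change 0.87, adjusted p = 0.026). *Rpph1* held 1930 and 1681 CPM at 0 h and 1913 and 2305 CPM at 36 h. Their O4AID median was -0.50 at 1.5 h and -0.18 at 10 h against 6 h. The part of cell cycle stage and of the recovery of RNAs without a tail in the histone results was not tested.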

How the data were processed

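RNA-seq libraries were depleted of ribosomal RNA (Ribo-Zero), made with a directional kit and sequenced in pairs. Per the labels, the authors trimmed reads with Trim Galore 0.1.4, aligned them with TopHat2 2.1.0 to GRCm38/mm10 and deposited raw counts per Ensembl gene from featureCounts 1.5.1. The strand setting and the treatment of multi-mapping reads are not given in the sources used here. Symbols came from GENCODE M21 by Ensembl ID and matched 48349 of 48709 genes, and the unmatched genes held 0.0412% of reads. Spike-in entries (92, with 0 reads) were left out.

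CreER counts were fitted with edgeR 4.0.16 (R 4.3.3; TMM, filterByExpr, robust quasi-likelihood F test, Benjamini-Hochberg adjustment) over all 10 libraries. O4AID, with 1 library per time, was described by log2 ratios of TMM-scaled CPM + 1 for genes with at least 150 reads in all, with 95% intervals from Wilson bounds. The scripts were tested on simulated data. DESeq2 1.42.0, other scalings, filters, pseudocounts, a replicate block and the removal of each library were tried as alternatives. The members and gene lists were chosen with earlier results of these data known. Named members were the 3 of each type with the highest mean RPKM, the largest changes in CreER at 36 h and in O4AID at 24 h, *Slbp*, *Npat*, *Casp8ap2*, *Pou5f1* and, of each list other than the cell type markers, the 2 genes with the lowest p at 36 h, and others are stated as such or needed for a count. Nothing in the labels says that replicates came from separate cultures, so p-values measure only the spread between these libraries, and intervals cover counting error only.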

Additional observations from a re-analysis of the deposited data

Results flagged for a closer look

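*Hist1h2aa* had values of opposite sign in the 2 lines at 24 h, and neither was shown to be a change by a test. In CreER both libraries, at 10.1 and 10.6 CPM, lay below the 0 h libraries at 11.6 and 12.9 CPM, with a log2 fold change of -0.24 that did not pass the test (edgeR quasi-likelihood test, adjusted p = 0.101), whereas in O4AID the gene went from 0.820 to 2.69 CPM, a log2 ratio of 1.02 on 36 and 123 reads. The difference between the lines was not tested, and O4AID has 1 library per time. The untreated level was far lower in O4AID than in CreER.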

How the results depend on the processing

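Counts below are members that passed the threshold, and medians are log2 values. In CreER with no filter on low counts, 1 member was higher and 1 lower at 12 h, 14 were lower at 18 h, and 2 were higher and 10 lower at 36 h (median -0.043). With only the 4 libraries compared, 1 was higher at 12 h, and *Hist1h1a*, *Hist1h1b* and *Hist1h3c* lost their 18 h calls (0.0534, 0.0634 and 0.0597). DESeq2 called 0 higher at 18 and 24 h, as it gave *Hist3h2a* no adjusted p there. At 36 h, total-count scaling gave 16 lower and a median of -0.116, and upper-quartile factors a median of -0.047. Same-numbered CreER libraries did not deviate together over the genes tested (r from -0.0209 to 0.0501). This shows no pairing by number but cannot exclude one, since the deviations include counting noise. With replicate number as a block, 20 were lower at 24 h and 2 were higher at 36 h. Leaving out 1 library gave, at 12 h, 0 to 1 lower and medians of -0.031 to 0.047. At 18 h it gave 0 to 1 higher, 1 to 9 lower and medians of -0.168 to -0.043. At 24 h it gave 0 to 1 higher, 4 to 21 lower and medians of -0.203 to -0.102, and at 36 h 1 to 2 higher, 1 to 12 lower and medians of -0.065 to 0.003. In O4AID, total-count scaling gave 1 higher at 1.5 h, a median of 0.124 at 6 h, 6 lower at 10 h (median -0.335) and 2 lower at 24 h (median -0.262). A pseudocount of 0.1 CPM gave 2, 4, 1 and 4 higher at 1.5, 6, 10 and 24 h and 1 lower at 6 h, and one of 5 CPM gave 1 higher and 4 lower at 24 h. At 2-fold, 0 were lower at 10 h and at 24 h. Against 1.5 h, the 10 h median was -0.497. Without small RNA, rRNA and mitochondrial genes in the total, the share of reads on members changed by 1.46% at 12 h and -1.51% at 36 h in CreER, and by 4.16%, 6.52% and -14.7% at 1.5, 6 and 24 h in O4AID. Without *Hist1h1a*, the member with the most reads, it changed by -8.18% at 36 h in CreER and by 8.39% and -23.6% at 6 and 10 h in O4AID. The untreated median ratio was 0.546 with total-count scaling and 0.668 to 0.789 against a single CreER library. Where the alternative itself does not show it (fewer libraries, another threshold or total), the cause was not tested. The median at 24 h in CreER and at 10 and 24 h in O4AID was below 0 under each alternative run. Of 2368 values of named genes under alternatives, 51 lost and 42 gained a call and none of the called values changed sign. Depth limits *Hist3h2a* most, with 7 to 46 reads per library.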
